A study of Mus musculus with 6 samples.

Results

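Among the secreted and membrane-bound enzymes that cut the extracellular matrix, and their inhibitors, 46 genes were followed in macrophages of the mouse mammary gland. They were every gene of the count table whose symbol was *Mmp* with a number, *Adamts* with a number, or *Timp1* to *Timp4*, and they made up 46 of 24061 gene symbols. There were 23 *Mmp* genes, 19 *Adamts* genes and 4 *Timp* genes. The rule used the symbols and no measured value, although the 3 families were picked for description with earlier results of these data known.

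The cells came from the inguinal mammary glands of FVB/N mice, which the study describes as female and nulliparous, with no transgene or treatment in either group. They were sorted as CD45+CD11b+F4/80+ macrophages that were either positive or negative for Lyve-1, a receptor for hyaluronan. Each of the 6 RNA-seq libraries, 3 Lyve-1+ and 3 Lyve-1-, was made from the pooled cells of 4 mice, so no value belongs to a single animal. Replicate 1 of each subset came from 6-week-old mice and replicates 2 and 3 came from 10-week-old mice. Nothing in the labels says that the pools of the 2 subsets came from the same mice.

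Matrix metalloproteinases (MMPs) are zinc-dependent proteases that are made as inactive precursors and cut collagens, gelatin, elastin and many other proteins once they are activated. ADAMTS proteases are secreted relatives with thrombospondin-type repeats. Some of them cut large proteoglycans such as versican and aggrecan, and others trim procollagen or von Willebrand factor. Tissue inhibitors of metalloproteinases (TIMPs) bind the active site of these enzymes and block it, and TIMP2 also takes part in the activation of pro-MMP2 by MMP14 at the cell surface. Macrophages are known as a source of several of these enzymes and inhibitors.

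Library totals ran from 6478007 to 21406839 counts. *Lyve1* itself checked the labels, with 17 to 75 counts in the Lyve-1- libraries and 4735 to 30871 in the Lyve-1+ libraries. All 9 macrophage markers examined were measured, with sums of 9248 to 13240 CPM, read counts normalised to library size by the TMM method, in Lyve-1- and 10240 to 12870 CPM in Lyve-1+ libraries. *Lyz2* alone had 4879 to 6244 and 3978 to 6885 CPM of these. *Csf1r* (707 to 847 against 1108 to 1745 CPM) and *Cd68* (348 to 551 against 665 to 951 CPM) were higher in all Lyve-1+ libraries. *Ptprc* was lower in all of them, at 1210 to 1693 against 645 to 1128 CPM, and the other macrophage markers overlapped. Among 1102 olfactory receptor genes, which serve here as a background because macrophages are not known to use them, 642 had counts in Lyve-1- replicate 3, 361 had counts in Lyve-1+ replicate 1, and 4 to 132 did so in the other libraries. Per kb of exon, the olfactory receptor genes had 2.63 counts in Lyve-1- replicate 3, 1.00 and 1.19 in replicates 1 and 2 of the Lyve-1+ subset, and at most 0.0933 in the other 3 libraries. Lyve-1- replicate 3 and Lyve-1+ replicate 1 stood apart by the number of such genes counted. A gene at 0 counts may have reached 3, which is 0.144 to 0.437 CPM across the libraries and allows for counting error alone. The common biological coefficient of variation between pools was 0.931, a wide spread.

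Counts were found for 25, 32 and 44 of the 46 members in Lyve-1- replicates 1, 2 and 3, and for 44, 34 and 28 in Lyve-1+ replicates 1, 2 and 3. The libraries with 44 members counted were the 2 with the most olfactory receptor genes. The members counted that lay at or below the level per length of the olfactory receptor genes numbered 7 in Lyve-1- replicate 3, 3 and 1 in replicates 1 and 2 of the Lyve-1+ subset, and 0 elsewhere. After a filter on low counts, 35 members (76.1%) could be tested. The other 11 were the collagenases *Mmp1a* and *Mmp1b*, the stromelysins *Mmp10* and *Mmp11*, *Mmp7*, *Mmp20*, *Mmp21*, *Mmp27*, *Adamts16*, *Adamts20* and *Timp4*. Of these, *Adamts20*, *Mmp1b*, *Mmp20*, *Mmp21*, *Mmp7* and *Timp4* had all of their counts in Lyve-1- replicate 3 and Lyve-1+ replicate 1. *Adamts16* had 83.5% of its 97 counts there. *Mmp27* had 161 counts in all, of which 126 were in Lyve-1+ replicate 3.

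Levels per length, given as CPM per kb of exon, placed *Timp2* first among the members with a mean of 99.0 over the 6 libraries. *Mmp19*, a secreted MMP, followed at 80.0, then *Mmp9*, a gelatinase, at 33.2, and *Adamts1*, a proteoglycan-cleaving ADAMTS, at 26.3. The gelatinase *Mmp2* had 20.7 and the membrane-anchored *Mmp14* had 11.9 CPM per kb. The first 2 places were not in the same order in both subsets. In the Lyve-1- libraries *Mmp19* lay at 121, 93.4 and 63.9 CPM per kb, above *Timp2* at 33.8, 56.5 and 24.4. In the Lyve-1+ libraries *Mmp19* lay at 32.3, 75.4 and 94.2 CPM per kb, below *Timp2* at 256, 105 and 118. The ratio of *Timp2* to *Mmp19* per kb was therefore under 1 in all 3 Lyve-1- libraries, at 0.422 ± 0.166 (SD, n = 3), and over 1 in all 3 Lyve-1+ libraries, at 3.52 ± 3.80 (SD, n = 3). Several neighbours in this order, such as *Mmp2* and *Adamts1*, overlapped across libraries.

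**Figure D1:**
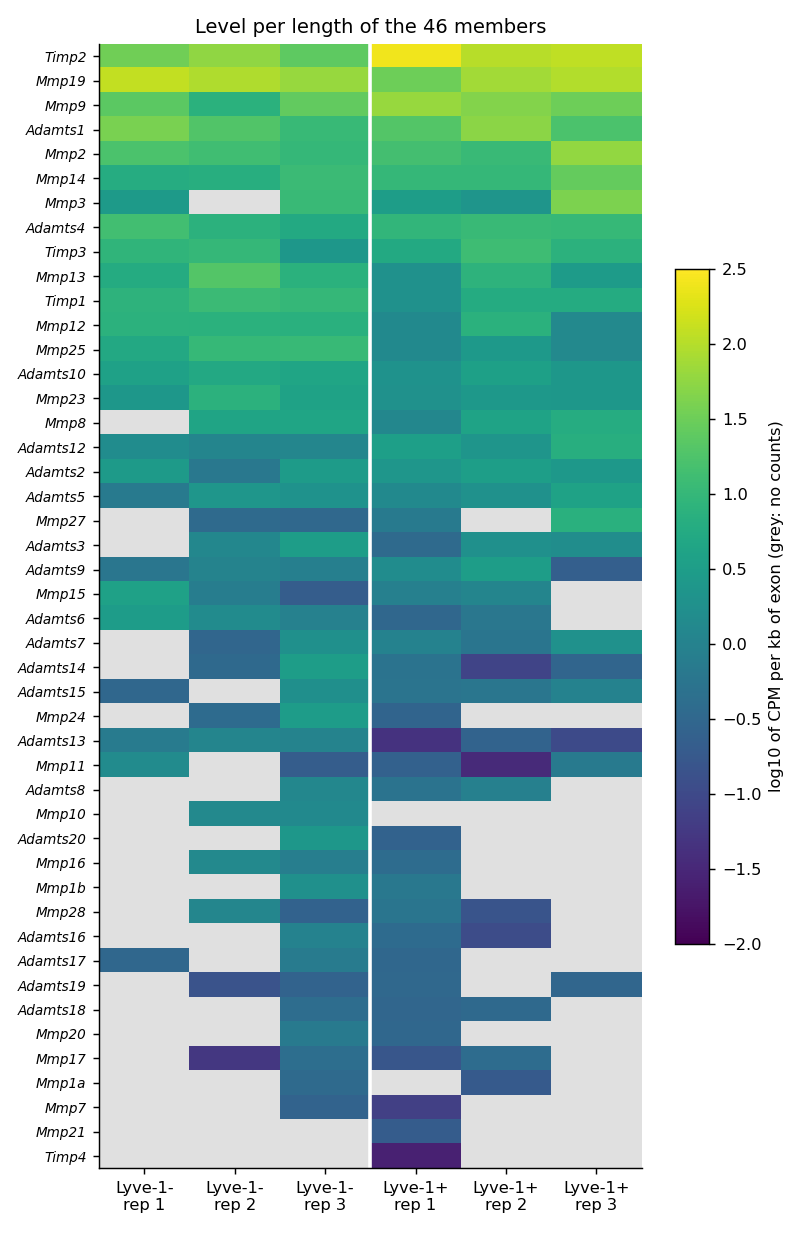
Level of each of the 46 members (rows) in each of the 6 libraries (columns, Lyve-1- on the left of the white line and Lyve-1+ on the right), as the log10 of CPM per kb of exon. Grey cells had no counts, and they are fewest in Lyve-1- replicate 3 and Lyve-1+ replicate 1, the libraries in which 44 members were counted.

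The question put to each member was whether its RNA differed between Lyve-1+ and Lyve-1- macrophages. A single member passed. *Timp2* was higher in Lyve-1+ macrophages, and no protease of either family passed the edgeR test in either direction. At an edgeR adjusted p under 0.05 this was 1 of 35 members tested (2.86%), where 0.629% of all 13348 genes tested were called, 0.45% as higher and 0.18% as lower. The study displayed genes with an adjusted p below 0.01 and a fold change between 1 and 10 in size, read here on the log2 scale. Under these limits edgeR called 0 of 35 members, where 0.112% of all genes were called. DESeq2, which is the test of the study, called 2 members under the same limits, *Timp2* and *Mmp25*, where 0.999% of all genes were called. At an unadjusted p under 0.05, 4 of 35 members (11.4%) were counted, namely *Timp2*, *Mmp9*, *Adamts12* and *Mmp25*, where 7.69% of all genes were. At an adjusted p under 0.05 DESeq2 called the same 2 members, where it called 2.22% of all genes. In bulk samples such as these, fewer cells of a type and less RNA per cell cannot be told apart.

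**Figure D2:**
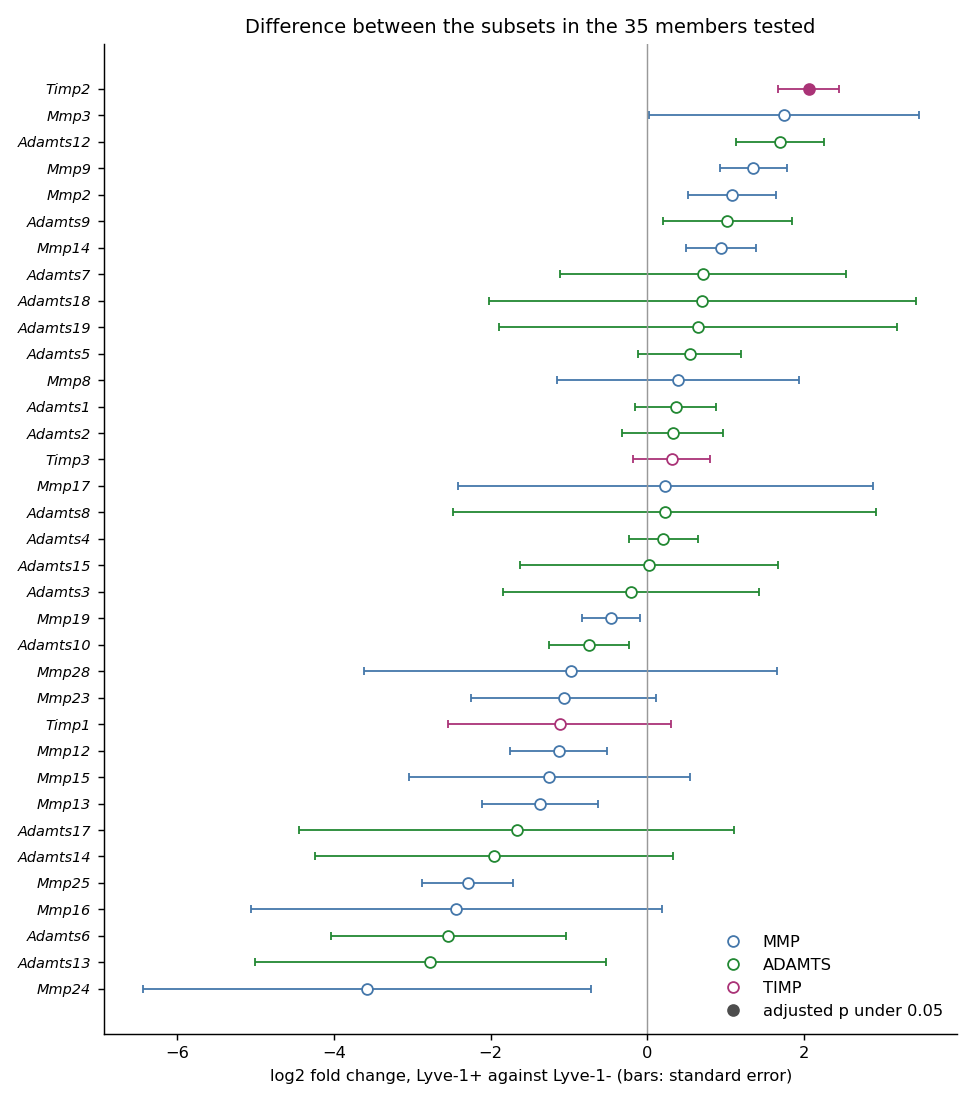
Log2 fold change of each of the 35 members tested, Lyve-1+ against Lyve-1-, with bars of 1 standard error from edgeR. *Timp2* at 2.06 is the filled point and the only one with an adjusted p under 0.05, and the values run down to -3.58 for *Mmp24*.

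The log2 fold changes of the members lay on both sides of 0. The value was above 0 for 19 members and below 0 for 16, with a median of 0.20 beside -0.01 over all genes tested. This median moved with single libraries, from -0.56 without Lyve-1+ replicate 2 to 0.63 without Lyve-1- replicate 3. The 15 MMPs tested had 6 above 0 and 9 below, with a median of -0.98. The 17 ADAMTS genes tested had 11 above 0 and 6 below, with a median of 0.22. In 8 members (22.9%) all libraries of one subset lay above all of the other, where this held for 14.3% of all genes, 7.82% with Lyve-1+ above and 6.5% with it below. They were *Timp2*, *Mmp9* and *Adamts12*, which were higher in the Lyve-1+ libraries, and *Timp1*, *Mmp25*, *Adamts6*, *Adamts10* and *Adamts13*, which were lower. When the 2 libraries with the most olfactory receptor genes were left out together, edgeR called 0 of 29 members tested. It called only 3 of 12360 genes in that fit, so the 0 does not set the members apart. Of the libraries kept, Lyve-1- replicate 1 alone was from 6-week-old mice, so age was not balanced between the subsets. The log2 fold changes in that fit were 1.34 for *Mmp9* (adjusted p = 0.921) and -1.97 for *Mmp25* (adjusted p = 0.921). They were 1.73 for *Adamts12*, -2.90 for *Adamts6*, -2.33 for *Adamts13*, -0.61 for *Adamts10* and -0.77 for *Timp1*. With 3 libraries against 3, an exact two-sided permutation test of a single gene cannot give a p below 0.1.

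The inhibitors come first. *Timp2* (ENSMUSG00000017466.9) lies at chr11:118301069-118355740 of mm10 and encodes a secreted inhibitor that is made by many cell types. It had 132, 220 and 95.2 CPM in Lyve-1- replicates 1, 2 and 3 and 996, 410.5 and 461 CPM in Lyve-1+ replicates 1, 2 and 3, from 653 to 13072 raw counts. The groups did not overlap, and the 6-week library was the highest of the Lyve-1+ group. The means were 149 ± 64.2 CPM and 623 ± 324 CPM (SD, n = 3 each), and the log2 fold change of 2.06, with a standard error (SE) of 0.39, passed at an edgeR adjusted p of 0.0368. DESeq2 gave 2.02 (adjusted p = 7.89e-05). The call was lost without Lyve-1- replicate 1 (log2 fold change 1.96, edgeR adjusted p = 0.128), without Lyve-1- replicate 3 (1.82, adjusted p = 0.151) and in the 10-week libraries alone (1.44, adjusted p = 0.325). With the 2 libraries that held the most olfactory receptor genes both left out, the log2 fold change was 1.29 (edgeR adjusted p = 0.465), and with the olfactory background subtracted it was 2.06 (adjusted p = 0.0402).

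*Timp1*, an inducible inhibitor at chrX:20870166-20874735, was far less abundant. It had 7.14, 10.5 and 8.75 CPM in the Lyve-1- libraries and 1.68, 5.17 and 5.29 CPM in the Lyve-1+ libraries. Every Lyve-1+ library was below every Lyve-1- library, but the difference did not pass, with a log2 fold change of -1.12 and a standard error of 1.42 (edgeR adjusted p = 1.000). *Timp3*, whose protein is held in the matrix, had 71.8, 79.8 and 19.7 CPM in the Lyve-1- libraries and 44.3, 104 and 64.0 CPM in the Lyve-1+ libraries. Its groups overlapped, and its log2 fold change was 0.31 (SE 0.49). Of its exon length, 21.3% overlaps the antisense gene *Syn3*, and whether strand was used in counting is not given in the sources used here. *Timp4* had 2 counts in all, both in Lyve-1+ replicate 1.

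Within the family, *Timp2* took 62.5%, 70.9% and 77.0% of *Timp* counts in the Lyve-1- libraries and 95.6%, 79.0% and 86.9% in the Lyve-1+ libraries. The ratio of *Timp2* to *Timp1* per kb was 4.20, 4.79 and 2.48 in the Lyve-1- libraries and 135, 18.1 and 19.9 in the Lyve-1+ libraries. Neither quantity overlapped between the groups. Summed over the family, *Timp* levels were 215 ± 93.5 CPM in Lyve-1- and 698 ± 298 CPM in Lyve-1+ libraries (SD, n = 3 each). The summed *Mmp* level was 672 ± 55.7 CPM against 698 ± 224 CPM and the summed *Adamts* level was 329 ± 66.5 CPM against 385 ± 115 CPM, and both of these overlapped. *Timp* genes made up 17.5 ± 6.92% of all member counts in Lyve-1- and 38.9 ± 15.2% in Lyve-1+ libraries (SD, n = 3 each). The *Timp* sums and shares, and the ratios of *Timp2* to *Timp1* and to *Mmp19*, follow *Timp2*, which holds most *Timp* counts. They are not further evidence.

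**Figure D3:**
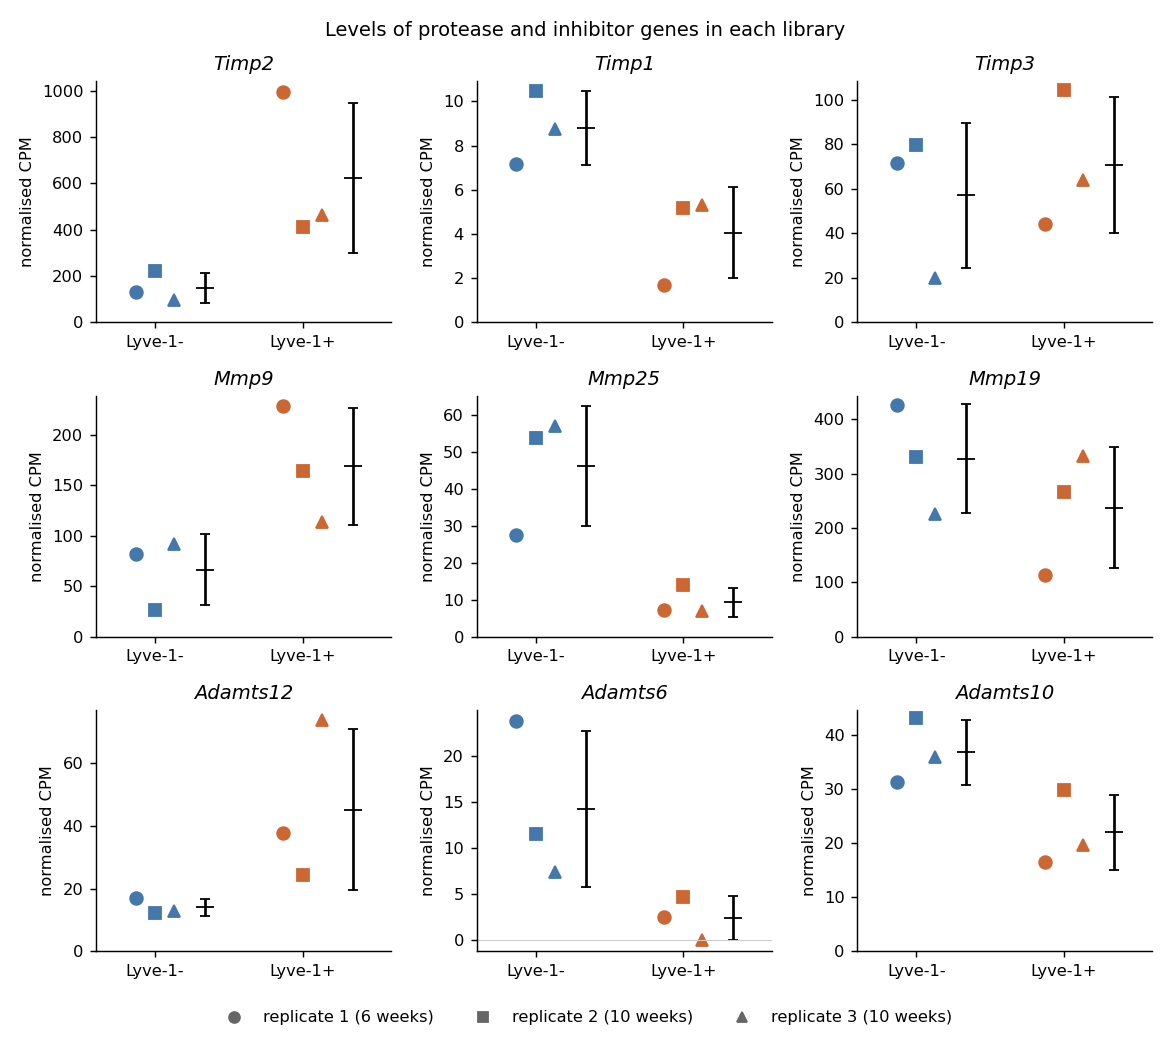
Normalised CPM of 9 members in each library, with Lyve-1- in blue and Lyve-1+ in orange. Circles are the 6-week replicate 1, squares and triangles are the 10-week replicates 2 and 3, and the black bars are the mean ± SD of 3 libraries. The groups are apart for all but *Timp3* and *Mmp19*, and *Timp2* alone passed the test.

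Among the gelatinases, which cut denatured collagen and the type IV collagen of basement membranes, both tested genes had log2 fold changes above 0. *Mmp9* (chr2:164940780-164955850) had 81.4, 26.3 and 91.4 CPM in the Lyve-1- libraries and 229, 164 and 113 CPM in the Lyve-1+ libraries. The groups did not overlap, and the nearest libraries were the replicates 3. The log2 fold change of *Mmp9* was 1.35 with a standard error of 0.43, and it did not pass after adjustment (unadjusted p = 0.00779, edgeR adjusted p = 0.298), although it was called when no filter on low counts was set (1.34, adjusted p = 0.0152). *Mmp2* had 55.5, 45.3 and 33.4 CPM against 48.2, 38.3 and 199 CPM. Lyve-1+ replicate 3 alone stood above the rest, and the log2 fold change of 1.08 (SE 0.56, edgeR adjusted p = 0.742) became -0.08 without that library.

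Of the MMPs grouped here as membrane-anchored, a group that leaves out *Mmp23*, 6 of 6 were tested, with 2 log2 fold changes above 0 and 4 below. *Mmp25*, a glycosylphosphatidylinositol-anchored enzyme known from leukocytes, lies at chr17:23628311-23645277. It had 27.5, 53.9 and 57.1 CPM in the Lyve-1- libraries and 7.16, 13.9 and 7.06 CPM in the Lyve-1+ libraries. All Lyve-1+ libraries were below all Lyve-1- libraries, with means of 46.2 ± 16.3 and 9.39 ± 3.95 CPM (SD, n = 3 each). The log2 fold change was -2.29 with a standard error of 0.58 (edgeR adjusted p = 0.115), while DESeq2 called it at -2.33 (adjusted p = 0.00569). edgeR also called it without Lyve-1- replicate 1 (-2.57, adjusted p = 0.0382) and with no filter on low counts (-2.30, adjusted p = 0.0313).

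*Mmp14*, the membrane-bound activator of pro-MMP2, had 35.7, 39.6 and 70.4 CPM in the Lyve-1- libraries and 60.3, 58.3 and 162 CPM in the Lyve-1+ libraries. The groups overlapped through Lyve-1- replicate 3, with a log2 fold change of 0.94 (SE 0.45, edgeR adjusted p = 0.662). Leaving out replicate 3 of the Lyve-1+ subset gave *Mmp14* 0.27 and leaving out that of the Lyve-1- subset gave 1.31, while it was 1.53 without the 2 libraries of most olfactory receptor genes. *Mmp24* had the lowest log2 fold change of the members tested, -3.58 with a standard error of 2.86. It rested on 0, 1.78 and 14.1 CPM in the Lyve-1- libraries against 1.30, 0 and 0 CPM, so that 1 library held most of its counts. Its log2 fold change ran from -9.52 to -1.02 over the alternatives tried. *Mmp15*, *Mmp16* and *Mmp17* had mean levels of at most 8.62 CPM in either subset and overlapped between the groups.

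*Mmp19*, an MMP with no membrane anchor, had the highest mean level of the proteases, although *Mmp9* was above it in Lyve-1+ replicate 1 and *Adamts1* in Lyve-1+ replicate 2 by CPM. It did not differ between the subsets by more than the spread. It had 427, 330 and 226 CPM in the Lyve-1- libraries and 114, 267 and 333 CPM in the Lyve-1+ libraries. The low Lyve-1+ library was the one from 6-week-old mice. The log2 fold change was -0.46 with a standard error of 0.37. Of the *Mmp19* exon length, 22.3% overlaps the antisense gene *Tmem198b*. *Mmp23* had 5.63 to 18.6 CPM in the Lyve-1- libraries and 4.42 to 5.94 in the Lyve-1+ libraries, and *Mmp28* had at most 4.53 CPM in any library.

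Most collagenase and stromelysin genes lie together in the genome. Of the 23 *Mmp* genes, 10 lie within 427 kb at chr9:7272514-7699585, in the order *Mmp13*, *Mmp12*, *Mmp1b*, *Mmp3*, *Mmp1a*, *Mmp10*, *Mmp8*, *Mmp27*, *Mmp20* and *Mmp7*. Only 4 of these 10 could be tested, against 11 of the 13 *Mmp* genes elsewhere. *Mmp12*, the macrophage elastase, had 56.3, 54.6 and 51.5 CPM in the Lyve-1- libraries and 9.98, 54.2 and 9.58 CPM in the Lyve-1+ libraries. The Lyve-1- libraries were close together, and 1 Lyve-1+ library lay among them. The log2 fold change of *Mmp12* was -1.13 (SE 0.62, edgeR adjusted p = 0.797), and it was -2.48 (adjusted p = 0.0460) when Lyve-1+ replicate 2 was left out.

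*Mmp13*, a collagenase, had 15.5, 53.8 and 19.97 CPM against 5.11, 21.5 and 7.81 CPM, and within each subset replicate 2 was the highest. Its log2 fold change was -1.37 (SE 0.74, edgeR adjusted p = 0.772). *Mmp8*, the collagenase first known from neutrophils, had 0, 10.4 and 10.8 CPM against 2.97, 9.87 and 15.0 CPM, with both 6-week libraries the lowest. *Mmp3*, stromelysin-1, had 5.04, 0 and 19.97 CPM in the Lyve-1- libraries and 5.87, 3.98 and 73.6 CPM in the Lyve-1+ libraries. As for *Mmp2*, Lyve-1+ replicate 3 was the highest library, and the log2 fold change of 1.74 had a standard error of 1.72. *Mmp3*, *Mmp8*, *Mmp12* and *Mmp13* were chosen for description after their values were seen.

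Motif matches upstream of the members were unevenly spread between the cluster and the rest. RefSeq promoters on GRCm38.p6, taken as the 250 bases before the annotated start, were at hand for 32 members and were searched on both strands. A member was counted where any of its promoters matched. The percentages over all are of single promoters, so they are not a like-for-like comparison. The AP-1 motif TGANTCA, the binding motif of Fos and Jun proteins, was found for 8 of the 10 cluster genes and for 0 of the 22 others, where 6.75% of 32851 promoters held it. The letters TATAAA were found in 7 of the 10 and in 2 of the 22 (12.4% of all promoters). The GC box GGGCGG was found in 0 of the 10 and in 16 of the 22 (32.7% of all promoters). The PU.1 motif GAGGAAGT was found in 3 of the 10, *Mmp7*, *Mmp8* and *Mmp12*, and in 0 of the 22 (2.44% of all promoters). A match is only a match of letters, and these counts say nothing of which factor is bound in these cells.

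The following stretches show these arrangements for 2 cluster genes of the tested set and for *Mmp25*. They are printed 5′ to 3′ on the strand of the gene, with bases that lie in an annotated exon left out, and the motifs are in capitals. In *Mmp13* (chr9:7272394-7272513, plus strand) the AP-1 match began 35 bases and the TATAAA match 16 bases before the start. In *Mmp3* (chr9:7445702-7445821, plus strand) they began 46 and 7 bases before it. *Mmp25* (chr17:23645278-23645519, minus strand) held 2 GC boxes, one of them on the opposite strand.
Mmp13: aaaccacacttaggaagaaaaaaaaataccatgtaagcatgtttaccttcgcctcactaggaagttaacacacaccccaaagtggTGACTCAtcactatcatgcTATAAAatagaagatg
Mmp3: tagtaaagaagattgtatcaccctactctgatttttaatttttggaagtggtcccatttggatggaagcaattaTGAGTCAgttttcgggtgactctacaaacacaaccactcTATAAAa
Mmp25: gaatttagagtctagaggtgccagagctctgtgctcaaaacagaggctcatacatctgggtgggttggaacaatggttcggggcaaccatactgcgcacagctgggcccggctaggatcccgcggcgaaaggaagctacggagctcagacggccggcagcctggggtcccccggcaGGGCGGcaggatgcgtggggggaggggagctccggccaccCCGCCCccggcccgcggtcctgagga

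Of the 7 proteoglycan-cleaving ADAMTS genes, 6 were tested and all 6 had edgeR log2 fold changes above 0, with a median of 0.29. *Adamts15* lay near 0, at 0.02 (SE 1.64), and DESeq2 gave it -0.01. Of all 13348 genes tested, 6594 were above 0. edgeR and DESeq2 called 0 of these 6 ADAMTS genes, and 0 had an unadjusted p under 0.05. *Adamts1* had 211, 99.9 and 56.3 CPM in the Lyve-1- libraries and 107, 274 and 87.8 CPM in the Lyve-1+ libraries. Its groups overlapped, and its log2 fold change of 0.36 (SE 0.52) became -0.35 without Lyve-1+ replicate 2. *Adamts4*, an aggrecanase, had 65.3, 37.9 and 25.7 CPM against 44.1, 54.0 and 49.5 CPM, with a log2 fold change of 0.20 (SE 0.44) that was -0.07 without Lyve-1- replicate 3. *Adamts5*, *Adamts8*, *Adamts9* and *Adamts15* had log2 fold changes of 0.54, 0.22, 1.02 and 0.02 and overlapped as well.

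The 3 procollagen N-propeptidases, which trim fibrillar procollagens, overlapped between the subsets. *Adamts2* had the highest mean of them, 20.3 ± 12.5 CPM in Lyve-1- and 25.3 ± 5.08 CPM in Lyve-1+ libraries (SD, n = 3 each). *Adamts3* and *Adamts14* had log2 fold changes of -0.21 and -1.96 with standard errors of 1.63 and 2.28. *Adamts14* reached 16.6 CPM in Lyve-1- replicate 3 and at most 2.74 CPM in every other library.

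Among the other ADAMTS genes, 4 did not overlap between the subsets. *Adamts12*, which is known to cut cartilage oligomeric matrix protein, lies at chr15:11064790-11349231. It had 16.9, 12.2 and 12.8 CPM in the Lyve-1- libraries and 37.6, 24.2 and 73.7 CPM in the Lyve-1+ libraries. The Lyve-1- libraries were close together, and Lyve-1+ replicate 3 was the highest. The log2 fold change was 1.69 with a standard error of 0.56, which did not pass (unadjusted p = 0.00877, edgeR adjusted p = 0.314), and it was 1.12 without Lyve-1+ replicate 3.

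The other 3 were lower in every Lyve-1+ library. *Adamts10* (chr17:33524204-33553782), a fibrillin-associated member, had 31.3, 43.3 and 36.0 CPM against 16.5, 29.9 and 19.7 CPM, with log2 fold change -0.74 (SE 0.51, edgeR adjusted p = 0.950). *Adamts6* (chr13:104287835-104496695), its closest relative, had 23.8, 11.6 and 7.44 CPM against 2.51, 4.74 and 0 CPM, with log2 fold change -2.54 (SE 1.5, adjusted p = 0.856). *Adamts13* (chr2:26973416-27009628), the protease of von Willebrand factor, had 3.70, 5.597 and 5.10 CPM against 0.229, 1.34 and 0.504 CPM, with log2 fold change -2.77 (SE 2.24). The groups were apart in each of these genes, and the SE was above 1 for *Adamts6* and *Adamts13*, which had lower counts than *Adamts10*. *Adamts7*, *Adamts17*, *Adamts18* and *Adamts19* had at most 12.1 CPM in any library and overlapped.

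Markers of other cell types moved with some of these values. The summed level of 15 fibroblast markers was 688 to 1069 CPM in Lyve-1- and 1145 to 2204 CPM in Lyve-1+ libraries, so that the groups did not overlap. All 15 were tested, 11 had log2 fold changes above 0, none was at 0 in all libraries, and edgeR called 0 of them. DESeq2 called 4, *Pdgfra*, *Lum*, *Col6a1* and *Col6a2*. These 4 were higher in all Lyve-1+ libraries than in all Lyve-1- libraries, and the other fibroblast markers overlapped. At an unadjusted p under 0.05 edgeR counted 5. Lyve-1+ replicate 3 had the highest sum, 2204 CPM, and was also the library with the highest *Mmp2*, *Mmp3*, *Mmp14*, *Adamts12* and *Mmp27*. *Timp2* was highest in Lyve-1+ replicate 1, where the fibroblast sum was 1145 CPM, close to the 1069 CPM of Lyve-1- replicate 1. The part of fibroblast RNA in these results was not tested.

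The neutrophil markers, of which 11 were in the table and 6 were tested, summed to 77.1 to 137 CPM in Lyve-1- and 98.9 to 498 CPM in Lyve-1+ libraries. Of the 6 tested, 4 had log2 fold changes above 0, 3 had an unadjusted p under 0.05, edgeR called 0 and DESeq2 called 1, *S100a9*. The highest sum was again in Lyve-1+ replicate 3, through *Csf3r*, *S100a9*, *Cxcr2* and *S100a8*, while *Mpo* and *Camp* were at 0 there, *Elane* was at 0 in 5 libraries and *Stfa2* in all 6. *Mmp9* and *Mmp25*, which neutrophils also make, were at their lowest of the Lyve-1+ group in that library. For *Mmp25* this was close, at 7.06 CPM beside 7.16 CPM in Lyve-1+ replicate 1. *Mmp8*, the collagenase first known from neutrophils, was at its highest in Lyve-1+ replicate 3, at 15.0 CPM. The part of neutrophil RNA in these values was not tested. The dendritic cell markers summed to 615 to 2183 CPM in Lyve-1- and 146 to 493 CPM in Lyve-1+ libraries. All 10 had log2 fold changes below 0 with a median of -1.58, the direction of *Mmp25*, and edgeR called 0 of them while DESeq2 called 3. At an unadjusted p under 0.05 edgeR counted 4 of the dendritic cell markers. Their part in the *Mmp25* values was not tested.

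In the other marker lists edgeR called 0 genes. Mast cell markers summed to 39.3 to 82.4 CPM in Lyve-1- and 41.5 to 242 CPM in Lyve-1+ libraries, with 4 of 5 tested above 0, a median log2 fold change of 1.97 and 2 at an unadjusted p under 0.05. Mammary epithelial markers summed to 56.1 to 443 and 50.2 to 115 CPM, with 8 of 8 tested below 0, a median of -1.29 and 2 at an unadjusted p under 0.05. Eosinophil markers summed to 37.1 to 126 and 13.9 to 37.6 CPM, with 3 of 3 tested below 0, and *Ccr3* at -3.26 was called by DESeq2. The sums of the monocyte, endothelial, adipocyte, and T and B cell markers overlapped between the subsets. The part of these cells in the members' values was not tested.

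**Figure D4:**
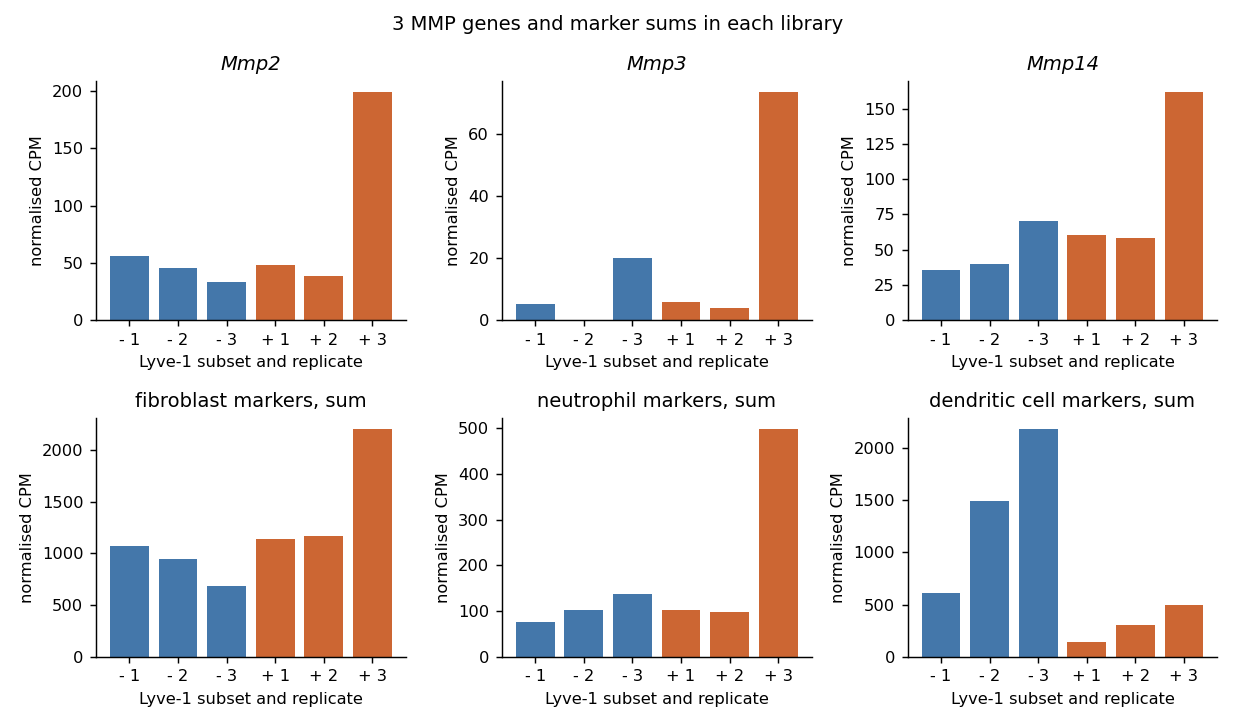
Normalised CPM in each library of *Mmp2*, *Mmp3* and *Mmp14* (top) and summed CPM of fibroblast, neutrophil and dendritic cell markers (bottom), with Lyve-1- libraries in blue and Lyve-1+ libraries in orange, numbered by replicate. Lyve-1+ replicate 3 is the highest bar in the top panels and in the fibroblast (2204 CPM) and neutrophil (498 CPM) panels, and the dendritic cell sums are higher in all Lyve-1- libraries.

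Genes that work beside the members were read from lists. Of the 6 ADAMTS-like proteins, which share the ADAMTS ancillary domains without the protease, 5 were tested and 0 were called by edgeR or DESeq2 or had an unadjusted p under 0.05, with a median log2 fold change of 0.30 beside -0.01 over all genes. *Adamtsl5* had the highest, 2.29 (edgeR adjusted p = 0.842), and *Adamtsl3* the lowest, -0.66. Of the 12 ADAM genes listed, 11 were tested and 0 were called by edgeR, with 5 of 11 at an unadjusted p under 0.05 beside 7.69% of all genes. DESeq2 called *Adam23*, at a log2 fold change of -2.50 (adjusted p = 0.0246), with 38.7, 150.4 and 174 CPM in the Lyve-1- libraries and 5.87, 13.9 and 44.9 CPM in the Lyve-1+ libraries, which overlapped. *Adam15* had the highest log2 fold change, 0.87 (edgeR adjusted p = 0.548), and *Adamdec1* the lowest, -2.58. *Adam9*, *Adam8* and *Adam22*, named after their values were seen, did not overlap between the subsets, where this held for 14.3% of all genes. *Adam9* had 202, 185 and 146 CPM in the Lyve-1- libraries and 350.4, 285 and 311 CPM in the Lyve-1+ libraries, and *Adam8* had 794, 485 and 673 CPM against 91.9, 307 and 356 CPM. *Adam22* had 34.1, 56.2 and 53.9 CPM against 14.55, 32.2 and 14.9 CPM. None of these passed the edgeR test, with adjusted p = 0.279 for *Adam9*, 0.287 for *Adam8* and 0.538 for *Adam22*.

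Among 23 activators and regulators of MMPs, 19 were tested and 0 were called by edgeR or DESeq2, with 1 at an unadjusted p under 0.05 and a median log2 fold change of -0.42. *Reck*, a membrane-anchored inhibitor of MMPs, had the highest log2 fold change, 2.34 with a standard error of 1.70. It had 1.93, 0 and 4.52 CPM in the Lyve-1- libraries and 11.3, 10.6 and 10.8 CPM in the Lyve-1+ libraries, with the groups apart (edgeR adjusted p = 0.973). *Pcsk6*, a proprotein convertase, had the lowest, -1.95. Of 5 astacin metalloproteases, 2 were tested, *Tll1* at -2.24 and *Bmp1*, the procollagen C-proteinase, at -0.82, and neither passed. A list of 8 genes held hyaluronan-binding proteoglycans, which include substrates of the proteoglycan-cleaving ADAMTS enzymes, and their partners. Of these 8 only versican, *Vcan*, was tested, with a log2 fold change of 0.10 (SE 0.62).

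The 10-week libraries were then set against the 6-week libraries in a fit that also held the subset, and each subset had a single 6-week library. edgeR called 0 of 35 members at an adjusted p under 0.05, where 0.0225% of all genes were called, and DESeq2 called 0 as well. At an unadjusted p under 0.05 there were also 0 members, where there were 3.33% of all genes. The smallest unadjusted p was 0.0800, for *Adamts5*, whose log2 fold change was 1.34, with an edgeR adjusted p of 1.000. The median log2 fold change of the members was 0.52, beside 0.07 over all genes.

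Whether the difference between the subsets itself changed with age was tested as an interaction, which edgeR called for 0 members, where 0.00749% of all genes were called. At an unadjusted p under 0.05 there were 4 of 35 members (11.4%), where there were 4.59% of all genes. They were *Mmp19*, *Adamts1*, *Mmp16* and *Timp2*. The difference between the subsets in *Mmp19* was 2.01 higher on the log2 scale at 10 weeks than at 6 weeks (unadjusted p = 0.00398, edgeR adjusted p = 0.656), and that of *Adamts1* was 2.19 higher (unadjusted p = 0.0326, adjusted p = 0.976). That of *Timp2* was -1.45 on the same scale (unadjusted p = 0.0414, adjusted p = 0.976), since the Lyve-1+ library at 6 weeks was the highest. With 1 library per subset at 6 weeks, age and the single pool cannot be told apart.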

How the data were processed

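RNA-seq was analysed in 6 libraries, 3 per subset. The authors mapped paired reads to mm10 with HISAT2 2.0.2 and used featureCounts 1.5.0 to count reads per gene symbol. The deposited values are raw counts without normalization. The study removed a 6-week library as an outlier, which was not used here. Gene positions and exon lengths came from GENCODE M21, and 336 of 24061 symbols had no match.

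Genes that passed filterByExpr, grouped by subset, were scaled by TMM and tested with edgeR 4.0.16 (R 4.3.3) by the quasi-likelihood F test with robust estimation, with Benjamini-Hochberg adjustment over 13348 genes and all 6 libraries. The subset was the only term, except that age comparisons added age. DESeq2 1.42.0, the test of the study, was an alternative. Standard errors were derived from the F statistic. Values in every library were given for each *Timp* gene, each member called, each member whose groups did not overlap, the 8 highest by mean CPM, and the highest and lowest log2 fold changes. In the lists beside the members, genes called or the highest and lowest were named.

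The members and lists were chosen with earlier results of these data known. P-values measure the spread between pools. In counts simulated for this comparison with the dispersion estimated by edgeR over 13348 genes, edgeR recovered 26.5% of 200 genes given a log2 fold change of 2, beside 5 false calls. DESeq2 recovered 38.5%, and 84 of its calls were false. This setting cannot rank the tools, since its dispersion came from edgeR. At a fixed dispersion of 0.1 edgeR recovered 90% with 12 false calls, and DESeq2 recovered 88% with 19.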

Additional observations from a re-analysis of the deposited data

How the results depend on the processing

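The count of members called, 1 at an edgeR adjusted p under 0.05, was 3 with no filter on low counts and 3 with the replicate block, 2 with DESeq2, and 0 in the 10-week libraries alone, under the limits of the study in edgeR, and with the 2 libraries of most olfactory receptor genes left out, an alternative chosen after seeing the data. DESeq2 under the limits of the study, also run after seeing the data, called 2. It ran from 0 to 2 when single libraries were left out. The replicate block and the fit without a filter added *Mmp9* (log2 fold change 1.48, edgeR adjusted p = 0.0427 with the block) and *Mmp25* (-2.29, adjusted p = 0.0494 with the block). Same-numbered libraries did not deviate together (correlations of -0.05, 0 and -0.15). With deviations taken from means of 3 libraries, this cannot decide whether same-numbered libraries came from the same mice. The labels do not say so, and the main fit took the libraries as unpaired. *Timp2* stayed above 0 in all 17 alternatives, between 1.29 and 2.46, and was past the threshold in 13. Signs turned for *Adamts1* (-0.35 without Lyve-1+ replicate 2, with up to 0.98 when other libraries were left out), *Adamts4* (-0.07 to 0.62 with single libraries left out, lowest without Lyve-1- replicate 3, and -0.02 without the 2 libraries of most olfactory receptor genes), *Mmp19* (0.09 at 10 weeks alone), *Mmp2* (-0.08 without Lyve-1+ replicate 3, otherwise up to 1.45) and *Timp3* (-0.10 without either Lyve-1- replicate 3 or Lyve-1+ replicate 2, otherwise up to 0.63), none of which had been called, and the cause was not tested. Over all genes, 84 were called (71.4% of them higher), against 343 with DESeq2 (46.1% higher), 289 with no filter, 270 with the replicate block, 130 with age as a covariate, 39 at 10 weeks alone, 3 without the 2 libraries of most olfactory receptor genes, and 19 (without Lyve-1- replicate 3) to 153 (without Lyve-1+ replicate 2) with single libraries left out. The count for age was 0 in every alternative run. The 11 members that could not be tested had 2 to 177 counts over the 6 libraries.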
